A study of Mus musculus with 12 samples.

Results

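The 35 genes described here make cholesterol and fatty acids, sense sterols or move them: 7 enzymes of the mevalonate pathway, 11 enzymes that turn its product into cholesterol, 4 regulators, 9 fatty-acid enzymes and 4 genes of sterol transport. They were listed by symbol, and all 35 were found among the 55401 gene identifiers of the count files. Of these, 34 passed the filter on low counts that left 17569 genes for testing. Abcg1, a sterol exporter, did not pass: it was at 0 to 0.0557 CPM, the count scaled to a fixed library total, and never had more than 3 reads in a library. The list was drawn up with the results of 2 kinds of comparison in view, each knockdown against scramble and replicates 3 and 4 against replicates 1 and 2. Values and counts of called genes in those comparisons are therefore a description that supports nothing beyond itself.

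The libraries came from Neuro-2a, a mouse neuroblastoma line grown in medium with fetal calf serum. Every group received a GFP plasmid (1 µg) and 3 µg of plasmid for artificial microRNAs in a miR30 backbone, delivered with a lipid transfection reagent, and GFP-positive cells were sorted 48 hours later. The microRNAs were a scramble sequence (miScramble), a pool of 3 plasmids against Rbmx (miRbmx) or a pool of 2 plasmids against Rbmxl1 (miRbmxl1), with 4 libraries in each group. Rbmx encodes an RNA-binding protein and Rbmxl1 is a retrocopy of it. All groups thus share the lipid reagent, the GFP plasmid and the sort. Because the plasmids against a gene were pooled and only 1 line was used, the effect of a single microRNA or of the line cannot be told apart from that of the knockdown. The labels call the replicates biological and do not say what their numbers stand for.

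Cells adjust the level of their sterol and fatty-acid enzymes through SREBP transcription factors, which Srebf1 and Srebf2 encode. Scap carries an SREBP from the endoplasmic reticulum to the Golgi when sterols are scarce, Insig1 holds the complex back when they are plentiful, and the released SREBP binds sterol regulatory elements, usually beside CCAAT boxes bound by NF-Y and GC boxes bound by Sp1. Liver X receptors (LXR) respond to oxysterols instead and raise Abca1, Abcg1, Mylip and Srebf1. Neural cells make most of their own cholesterol, since plasma lipoproteins do not cross into the brain.

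Promoter sequence was available from RefSeq (GRCm38.p6) for 27 of the 35 genes, and the 250 bases before each start site were searched on both strands. Abcg1, Fads1, Fdft1, Fdps, Scd1, Scd2, Sqle and Stard4 had no entry. The windows below show the gene with the lowest ratio between the replicate sets (Hmgcs1), a further mevalonate gene (Mvd), a sterol gene that went the other way (Ebp), and the gene that was lower in both knockdowns (Abca1). Capitals mark TCACNCCAC, a sterol regulatory element in the form searched, and CCAAT, or ATTGG where it lies on the other strand.
Hmgcs1, chr13:119690101-119690350, plus strand: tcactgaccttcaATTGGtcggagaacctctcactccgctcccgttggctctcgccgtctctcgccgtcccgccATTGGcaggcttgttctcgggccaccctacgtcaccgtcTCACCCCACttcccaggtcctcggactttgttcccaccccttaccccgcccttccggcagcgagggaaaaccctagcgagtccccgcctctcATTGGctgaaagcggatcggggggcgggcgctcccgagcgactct
Mvd, chr8:122443423-122443672, minus strand: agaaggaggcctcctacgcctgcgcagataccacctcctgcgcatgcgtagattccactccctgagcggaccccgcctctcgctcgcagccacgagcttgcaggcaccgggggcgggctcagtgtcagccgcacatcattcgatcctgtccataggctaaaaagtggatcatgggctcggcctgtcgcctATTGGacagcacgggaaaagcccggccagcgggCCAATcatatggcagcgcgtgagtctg
Ebp, chrX:8193513-8193762, minus strand: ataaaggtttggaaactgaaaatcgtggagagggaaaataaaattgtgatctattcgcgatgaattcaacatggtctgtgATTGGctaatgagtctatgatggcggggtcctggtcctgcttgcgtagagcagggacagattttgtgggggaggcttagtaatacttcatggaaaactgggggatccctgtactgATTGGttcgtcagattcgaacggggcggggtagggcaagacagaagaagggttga
Abca1, chr4:53159896-53160145, minus strand: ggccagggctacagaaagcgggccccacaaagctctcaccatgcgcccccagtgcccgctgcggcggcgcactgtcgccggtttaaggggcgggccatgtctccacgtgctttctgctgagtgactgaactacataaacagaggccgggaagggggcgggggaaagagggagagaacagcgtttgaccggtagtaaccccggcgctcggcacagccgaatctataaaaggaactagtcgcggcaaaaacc

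The Hmgcs1 window held TCACNCCAC at -137 to -129, counted from the start site, and 3 CCAAT boxes on the minus strand at -237 to -233, -176 to -172 and -45 to -41. It was the single member with TCACNCCAC (3.7% of 27, against 1.22% of 27025 genes). CCAAT was in the windows of 20 members, 74.1%, against 37.5% of all genes. GGGCGG, the core of a GC box, was in 23 members, 85.2%, against 35.4% of all genes. The 27025 genes are all those with a window, including genes too low to be tested here, and so are an unlike set. The Abca1 window held GGGCGG and no CCAAT. A match is a description of the letters, and its absence says only that those letters are not in this window.

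The libraries held between 43.1 and 52.2 M reads in genes. Replicates 1 and 2 stood apart from replicates 3 and 4 in every group: log2 CPM centred on the group means correlated at 0.2 to 0.52 between libraries of the same number, at 0.1 to 0.43 between libraries of the same set with other numbers, and at -0.57 to -0.13 between libraries of the 2 sets. Because of the centring, positive values within sets force negative ones between sets, so that sign adds nothing. The labels give no reason for this split. Rbmx was at 57.6, 67.8, 72.2 and 73.3 CPM in miScramble replicates 1 to 4 and at 22.2, 24.7, 31 and 32.6 CPM in miRbmx. Rbmxl1 was at 31.3, 36.7, 34.2 and 34.2 CPM in miScramble and at 16.7, 12.9, 14.7 and 12.3 CPM in miRbmxl1. Rbmx was also called higher in miRbmxl1, at 81.9, 90, 85.3 and 88 CPM, all above scramble (log2 change 0.36 ± 0.07), so the miRbmxl1 libraries combine less Rbmxl1 with more Rbmx. Rbmxl1 in miRbmx overlapped scramble (0.08 ± 0.09). The 9 neuronal or neuroblastoma markers were above 1 CPM in all 12 libraries. Of the markers of other cell types, Col3a1, Aqp4, Alb, Epcam and Krt18 were at 0 in every library, while Mbp (10.3 to 18.7 CPM), a myelin gene, and Pecam1 (4.62 to 7.82 CPM), an endothelial gene, were above 1 CPM in all 12.

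Per kilobase of exon, the genes spanned a wide range in miScramble. Scd2, a desaturase that makes monounsaturated fatty acids, was highest at 347 ± 77.5 RPKM (SD, n = 4), followed by the fatty-acid synthase Fasn at 136 ± 9.11 RPKM and Srebf2 at 136 ± 20 RPKM. The citrate lyase Acly, which supplies acetyl-CoA, was at 125 ± 7.75 RPKM and Srebf1 at 108 ± 3.59 RPKM. Fasn and Srebf2 did not differ beyond their spread, and Acly lay within 1 SD of Srebf2. The related desaturase Scd1 was far below Scd2, at 4.03 ± 1.65 RPKM. At the low end were Mylip, which encodes a ubiquitin ligase for lipoprotein receptors, at 1.74 ± 0.303 RPKM, and the farnesyl diphosphate synthase Fdps at 1.18 ± 0.138 RPKM.

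Against scramble, few of these genes were called (edgeR's quasi-likelihood test with the replicate number as a block, adjusted p under 0.05 over all genes tested). In miRbmx, 4 of 34 were called, where 8.35% of all genes tested were: Ebp, Dhcr7 and Fads2 were higher and Abca1 was lower. In miRbmxl1, 1 of 34 was called, Abca1, lower, where 4.46% of all genes were. The median log2 change of the 34 was 0.07 in miRbmx and 0 in miRbmxl1, beside 0 and 0.01 over all genes. Both contrasts use the same scramble libraries, so their values are set side by side and not compared. Without the block, edgeR called none of the 34 in either knockdown (0.00569% of all genes in each), and 3 and 4 of them had an unadjusted p under 0.05, where 10.9% and 8.46% of all genes did. With replicates 3 and 4 as the only libraries, 10 and 8 of the 34 passed, where 10.1% and 5.53% of all genes did. Beside Abca1, Ebp, Dhcr7 and Fads2, which passed in both knockdowns, these were Acly, Pmvk and Msmo1 in both, Fasn, Insig1 and Tm7sf2 in miRbmx, and Mvk in miRbmxl1. With replicates 1 and 2 as the only ones, none of the 34 passed (edgeR, 0.023% and 0.172% of all genes), and 7 and 2 had an unadjusted p under 0.05, where 18.5% and 13.4% of all genes did. DESeq2 called Acly and Srebf2 as well in miRbmx (6 of the 34), and Acly, Dhcr7, Ebp and Fads2 beside Abca1 in miRbmxl1 (5 of the 34). It called 2024 and 1279 genes in all, 15% and 9.73% of those it gave an adjusted p. Mycn, a neuroblastoma marker, was called higher in both knockdowns (0.56 ± 0.12 and 0.66 ± 0.12), and its part in these values was not tested. In these bulk libraries, fewer cells with a transcript and less of it per cell cannot be told apart.

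Abca1, which exports cholesterol to apolipoproteins, had the largest change of these genes in either knockdown. It was at 47.4, 43.8, 43.2 and 46.1 CPM in miScramble replicates 1 to 4. In miRbmx it was at 32.4, 36, 22.6 and 32.7 CPM, and in miRbmxl1 at 37.3, 33.9, 27.6 and 37.9 CPM. All 4 libraries of each knockdown lay below all 4 scramble libraries. The log2 change was -0.56 ± 0.08 (SE) in miRbmx, 0.676 of the scramble level, and -0.41 ± 0.08 in miRbmxl1, 0.751 of it. Within replicates 1 and 2 the miRbmx change was -0.40 ± 0.10 and within replicates 3 and 4 it was -0.72 ± 0.10. The corresponding miRbmxl1 changes were -0.34 ± 0.10 and -0.48 ± 0.10. When 1 library or 1 replicate number was left out, the miRbmx change lay between -0.65 and -0.43 and was called in 16 of 16 settings, and the miRbmxl1 change lay between -0.47 and -0.31 and was called in 12 of 16. These settings include those without a library of the other knockdown, which is not in the contrast. Abca1 always stayed called there. The gene lies at chr4:53030787-53159895 on the minus strand (GRCm38).

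Ranges of CPM that did not overlap scramble were few. In miRbmx 2 of 35 genes, Srebf1 and Acly, lay above (4.22% of all genes) and 1, Abca1, lay below (3.85%). In miRbmxl1 no gene lay above (2.88% of all genes) and Abca1 again lay below (2.79%). Over all libraries and with the filter on low counts, neither Srebf1 nor Acly was called by edgeR in miRbmx, and DESeq2 called Acly higher. In all 4 pairs of the same replicate number, 13 genes were higher and 3 lower in miRbmx than in miScramble, where 17.7% and 16.8% of all genes were. The counts for miRbmxl1 were 4 higher and 5 lower, where 13.4% and 12.6% of all genes were.

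Of the mevalonate enzymes, none of 7 was called in either knockdown over all libraries. Hmgcs1, the synthase that commits acetyl units to the pathway, had log2 changes of 0.14 ± 0.07 in miRbmx and 0.03 ± 0.07 in miRbmxl1. The kinase Mvk had 0.22 ± 0.10 and 0.25 ± 0.10, and the next kinase, Pmvk, had 0.20 ± 0.09 and 0.14 ± 0.09. Taken by replicate set, Pmvk had 0.01 ± 0.09 and -0.07 ± 0.09 in replicates 1 and 2 but 0.40 ± 0.08 and 0.37 ± 0.08 in replicates 3 and 4, where it was called in both. Mvk had 0.10 ± 0.10 and 0.07 ± 0.10 in the first set and 0.34 ± 0.12 and 0.45 ± 0.12 in the other, where it was called in miRbmxl1. Values for the thiolase Acat2 (0.09 ± 0.07 and 0.06 ± 0.07) and the decarboxylase Mvd (0.06 ± 0.06 and 0 ± 0.06) lay near 0. The isomerase Idi1 had -0.07 ± 0.09 and -0.16 ± 0.09, and Fdps had -0.19 ± 0.13 and -0.07 ± 0.13.

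Ebp, the isomerase that shifts a sterol ring double bond, and Dhcr7, the reductase of the last step, were called higher in miRbmx among the 11 sterol enzymes. Ebp was at 15.2, 14.8, 17.5 and 18.8 CPM in miScramble, at 16.5, 20, 24.8 and 22.7 CPM in miRbmx, and at 18.4, 15.8, 25.7 and 23.8 CPM in miRbmxl1. Its log2 changes were 0.34 ± 0.09 and 0.32 ± 0.09, with all 4 numbered pairs higher in both knockdowns and overlapping ranges. The difference of Ebp within a replicate set was 0.29 ± 0.13 in replicates 1 and 2 and 0.38 ± 0.09 in replicates 3 and 4 for miRbmx. Dhcr7 was at 112, 112, 64.8 and 68.4 CPM in miScramble, at 124, 133, 86.6 and 85.8 CPM in miRbmx, and at 126, 111, 91.5 and 83.4 CPM in miRbmxl1. Here the ranges overlapped because each group fell into a high and a low pair of libraries. The log2 changes of Dhcr7 were 0.28 ± 0.07 and 0.23 ± 0.07, and 4 and 3 of 4 pairs were higher. By set they were 0.20 ± 0.09 and 0.36 ± 0.07 in miRbmx and 0.09 ± 0.09 and 0.38 ± 0.07 in miRbmxl1.

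The other sterol enzymes were not called over all libraries. The reductase Tm7sf2 had log2 changes of 0.27 ± 0.10 in miRbmx and 0.28 ± 0.10 in miRbmxl1, and the dehydrogenase Nsdhl had 0.16 ± 0.11 and 0 ± 0.10. For the monooxygenase Msmo1 the values were -0.15 ± 0.07 and -0.20 ± 0.07, and for the desaturase Sc5d they were -0.11 ± 0.06 and -0.17 ± 0.06, lower in 4 of 4 pairs in both. The miRbmx change of Tm7sf2 was 0.07 ± 0.12 in replicates 1 and 2 and 0.46 ± 0.11, called, in replicates 3 and 4. Msmo1 had 0.02 ± 0.09 in miRbmx and -0.06 ± 0.09 in miRbmxl1 in the first set, and -0.33 ± 0.07 in both, called, in the other. Nsdhl in miRbmx had -0.02 ± 0.11 and 0.36 ± 0.15. The squalene synthase Fdft1 (0.02 ± 0.07 and -0.01 ± 0.07), the squalene epoxidase Sqle (-0.02 ± 0.06 and -0.06 ± 0.06), the lanosterol synthase Lss (-0.07 ± 0.06 and -0.06 ± 0.06), the demethylase Cyp51 (0.07 ± 0.07 and -0.01 ± 0.07) and the reductase Hsd17b7 (0 ± 0.07 and -0.01 ± 0.07) lay near 0.

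Over all libraries and with the filter on low counts, the 4 regulators were not called against scramble by edgeR, and DESeq2 called Srebf2 higher in miRbmx. Without miRbmxl1 replicate 2, edgeR called Srebf2 in miRbmx and Srebf1 in miRbmxl1. Srebf1 was at 583, 597, 622 and 625 CPM in miScramble, at 660, 726, 639 and 654 CPM in miRbmx, and at 690, 624, 715 and 710 CPM in miRbmxl1. The miRbmx libraries were all above the scramble libraries and the lowest miRbmxl1 library was below the highest scramble library. Srebf1 had log2 changes of 0.14 ± 0.06 and 0.18 ± 0.06. Srebf2, which drives mainly sterol genes, was at 1107, 1094, 834 and 873 CPM in miScramble, at 1262, 1299, 932 and 927 CPM in miRbmx, and at 1214, 1090, 988 and 957 CPM in miRbmxl1. Its changes were 0.17 ± 0.06 and 0.13 ± 0.06. The escort Scap was at 223, 227, 243 and 245 CPM, at 253, 245, 237 and 239 CPM, and at 259, 223, 254 and 255 CPM in the same order of groups. Its changes of 0.06 ± 0.06 and 0.08 ± 0.06 lay close to their SE, and the groups overlapped.

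Insig1 was at 261, 259, 149 and 153 CPM in miScramble, at 252, 260, 99.8 and 119 CPM in miRbmx, and at 234, 202, 147 and 131 CPM in miRbmxl1. Replicates 3 and 4 were lower than replicates 1 and 2 in each group, and the groups overlapped. The log2 changes against scramble were -0.23 ± 0.10 and -0.18 ± 0.10, and the gene was called in miRbmx with no filter on low counts. In miRbmx the change was -0.01 ± 0.09 for replicates 1 and 2 and -0.47 ± 0.08, called, for replicates 3 and 4, and in miRbmxl1 it was -0.24 ± 0.09 and -0.12 ± 0.08. It was higher than scramble in 1 of 4 pairs in miRbmx and in 0 of 4 pairs in miRbmxl1.

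Fads2, the desaturase that begins the synthesis of long polyunsaturated fatty acids, was the called gene among the 9 fatty-acid enzymes. It was at 239, 253, 193 and 212 CPM in miScramble, at 275, 304, 268 and 250 CPM in miRbmx, and at 275, 252, 266 and 249 CPM in miRbmxl1. The lowest library of each knockdown was under the highest scramble library, so the ranges overlapped. The log2 changes were 0.29 ± 0.07 in miRbmx and 0.22 ± 0.07 in miRbmxl1, higher in 4 and 3 of 4 pairs. Within replicates 1 and 2 the changes were 0.25 ± 0.09 and 0.11 ± 0.09, and within replicates 3 and 4 they were 0.34 ± 0.07 and 0.33 ± 0.07. Calls of Fads2, Dhcr7 and Ebp in miRbmx held in 11, 9 and 8 of the 16 settings that left out a library or a replicate number. These settings include those without a miRbmxl1 library, which is not in this contrast. There Fads2, Dhcr7 and Ebp always stayed called, so the losses all came from the other settings.

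Acly, also a fatty-acid enzyme, had log2 changes of 0.23 ± 0.08 in both knockdowns without being called by edgeR over all libraries and with the filter on low counts. It was called in both without that filter. In replicates 1 and 2 its changes were 0.13 ± 0.08 and 0.03 ± 0.08, and in replicates 3 and 4 they were 0.35 ± 0.07 and 0.43 ± 0.07, called in both. Its levels were 675, 712, 621 and 636 CPM in miScramble, 735, 769, 828 and 781 CPM in miRbmx, and 724, 682, 902 and 801 CPM in miRbmxl1. Scd1 had 0.20 ± 0.08 and 0.11 ± 0.08, and the desaturase Fads1 had 0.11 ± 0.06 and 0.07 ± 0.06. Values no farther than 0.1 from 0 in both knockdowns were found for the acetyl-CoA synthetase Acss2, the carboxylase Acaca, Fasn, the elongase Elovl6 and Scd2. Taken by replicate set, the miRbmx change of Fasn was 0.16 ± 0.10 in replicates 1 and 2 but -0.23 ± 0.06, called, in replicates 3 and 4. Among the transport genes, the sterol carrier Stard4 had 0.20 ± 0.07 and 0.21 ± 0.07 without being called (with no filter on low counts it was called in miRbmx), and Mylip had 0.11 ± 0.13 and -0.10 ± 0.13.

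**Figure D1:**
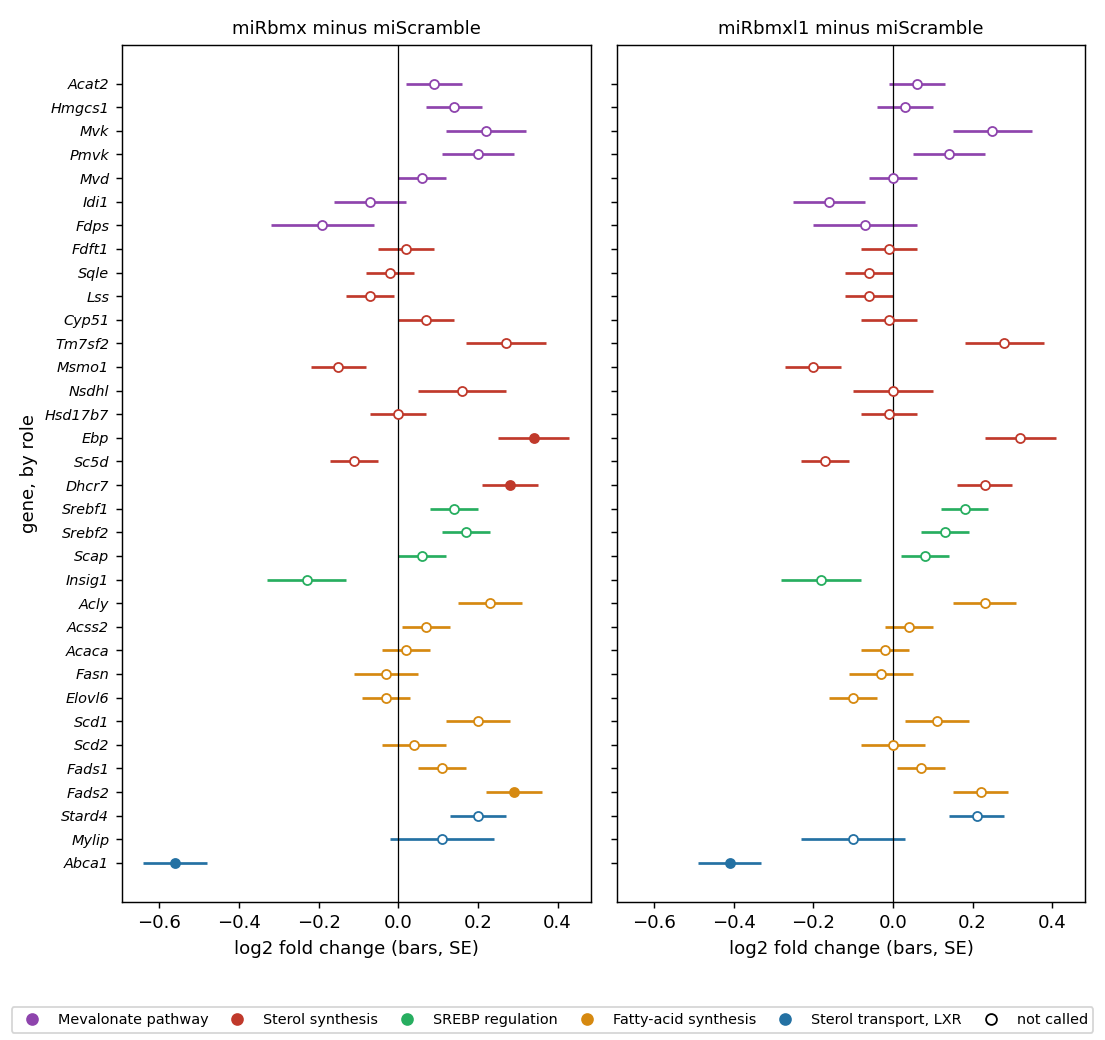
Log2 fold change against miScramble (x axis) of the 34 genes tested, grouped by role, in miRbmx (left) and miRbmxl1 (right); bars are SE, and filled points were called. Abca1 is the lowest point in both panels, at -0.56 and -0.41, and every other point lies between -0.23 and 0.34.

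The next comparison set miRbmx against miRbmxl1, whose values are the differences of the knockdown changes that were in view when the genes were chosen, so they too are a description. None of the 34 genes was called by edgeR's quasi-likelihood test with the block, where 0.0114% of all genes were (Rbmx and Rbmxl1 themselves), none had an unadjusted p under 0.05 (5.7% of all genes did), and DESeq2 called 0 (0.0569% of all genes). Differences of miRbmx minus miRbmxl1 ran from -0.15 for Abca1 to 0.21 for Mylip. Abca1 (-0.15 ± 0.08, 95% interval -0.33 to 0.03) was lower in miRbmx in 3 of 4 pairs. Taking all 34 genes, the 95% intervals lay between -0.40 and 0.48. No gene had ranges that did not overlap (1.12% of all genes). These intervals bound the differences averaged over the replicate sets and do not show that the knockdowns act alike. For Insig1 the difference was -0.05 over all libraries, 0.23 ± 0.09 within replicates 1 and 2 and -0.35 ± 0.08 within replicates 3 and 4. Within either set alone edgeR called none of the 34 (0.023% and 0.1% of all genes), and 1 and 4 of them had an unadjusted p under 0.05, where 9.76% and 8.7% of all genes did.

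The wider spread was between replicate sets within each group. In replicates 3 and 4, 25 of the 34 genes were called lower and 2, Ebp and Tm7sf2, higher than in replicates 1 and 2, where 22.5% and 23.1% of all genes were. These calls and SEs treat the 6 libraries of a set as separate, although they carry only 2 replicate numbers and libraries of the same number correlate. With the 3 libraries of each number summed, so that 2 sums were set against 2, the same 27 genes were called in the same directions, where 20.3% of all genes were lower and 18.3% higher. The split into these sets was itself found in these data, so neither fit tests whether the sets differ. The median log2 difference was -0.41 for the 34 genes and 0.03 for all genes, whose quartiles were -0.21 and 0.28. Ranges over the 6 libraries of a set did not overlap in 20 of 35 genes, all of them lower in replicates 3 and 4 (10.6% of all genes). Inside a group, replicates 3 and 4 were both below replicates 1 and 2 for 27 genes in miScramble, 27 in miRbmx and 23 in miRbmxl1, and 22 genes did so in all 3 groups. Over all genes tested these shares were 32.4%, 30.4%, 28.2% and 15.9%. Reads in the 35 genes made up 0.931% to 1.06% of reads in genes in replicates 1 and 2, and 0.76% to 0.84% in replicates 3 and 4.

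**Figure D2:**
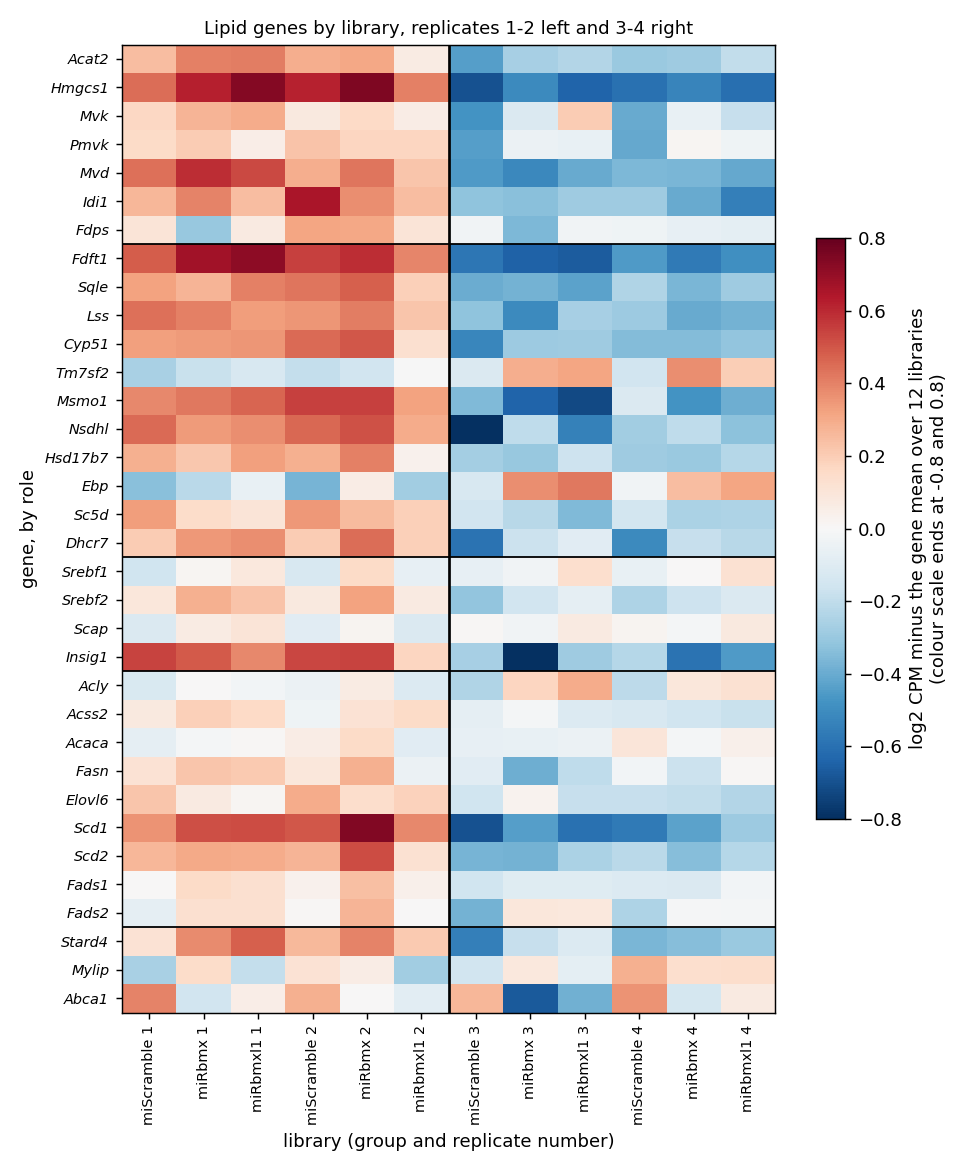
Log2 CPM of each tested gene minus its mean over the 12 libraries, in colour (scale ends at -0.8 and 0.8), with genes in rows by role and libraries in columns, replicates 1 and 2 left of the line. Most sterol genes are red on the left and blue on the right in every group, while Ebp and Tm7sf2 run the other way.

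Of the 7 mevalonate genes, 6 were lower in replicates 3 and 4, with a median log2 difference of -0.58. Hmgcs1 was at 202, 227, 91.5 and 98.2 CPM in miScramble replicates 1 to 4, at 228, 249, 104 and 103 CPM in miRbmx, and at 247, 196, 95.3 and 97.8 CPM in miRbmxl1. All 6 libraries of the first set were above all 6 of the other, and the means were 225 ± 22.2 and 98.2 ± 4.54 CPM (SD, n = 6). The log2 difference of -1.19 ± 0.06, 0.437 of the level in replicates 1 and 2, was reached or exceeded downward by 0.945% of all genes. The Hmgcs1 gene lies at chr13:119690379-119708260 on the plus strand.

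Mvd was at 77.6, 69.7, 41.7 and 44.5 CPM in miScramble, at 86.1, 76.8, 39.9 and 44.3 CPM in miRbmx, and at 82.3, 66.7, 43.1 and 43 CPM in miRbmxl1, and differed by -0.84 ± 0.06. Idi1 was at 16.5, 21.6, 11 and 11.3 CPM, at 18.1, 17.8, 10.9 and 10.4 CPM, and at 16.3, 16.3, 11.3 and 9.4 CPM in the same order, and differed by -0.73 ± 0.08. Neither gene's sets overlapped. Acat2 differed by -0.58 ± 0.06, Mvk by -0.34 ± 0.08 and Pmvk by -0.32 ± 0.07. Fdps was not called, at -0.21 ± 0.12.

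Among the 11 sterol enzymes, 9 were lower and 2 higher, with a median of -0.70. Fdft1, which joins farnesyl units into squalene, was at 113, 118, 54.2 and 59 CPM in miScramble, at 129, 122, 51.8 and 54.8 CPM in miRbmx, and at 133, 106, 51 and 57.7 CPM in miRbmxl1. Its difference was -1.13 ± 0.06, and the highest library of replicates 3 and 4 was well under the lowest of replicates 1 and 2. Msmo1 was at 117, 131, 70.3 and 82.7 CPM, at 120, 131, 57.5 and 64.4 CPM, and at 124, 112, 54.4 and 68.5 CPM, a difference of -0.89 ± 0.07. Nsdhl was at 14.9, 15, 5.92 and 8.97 CPM, at 13.8, 15.5, 9.45 and 9.44 CPM, and at 14.1, 13.4, 7.48 and 8.68 CPM, a difference of -0.80 ± 0.10. The sets of Msmo1 and of Nsdhl did not overlap. Lss (-0.72 ± 0.05), Sqle (-0.70 ± 0.05), Cyp51 (-0.70 ± 0.06), Dhcr7 (-0.59 ± 0.06), Hsd17b7 (-0.52 ± 0.06) and Sc5d (-0.46 ± 0.05) were also called lower, with ranges that did not overlap.

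Ebp and Tm7sf2 were the sterol enzymes with higher values in replicates 3 and 4. Ebp differed by 0.40 ± 0.07 and Tm7sf2 by 0.31 ± 0.08. Tm7sf2 was at 10.1, 10.6, 11.2 and 10.9 CPM in miScramble, at 10.7, 10.9, 14.8 and 15.7 CPM in miRbmx, and at 11.1, 12.1, 15.1 and 13.9 CPM in miRbmxl1. Replicates 3 and 4 were above replicates 1 and 2 in all 3 groups for both genes, although the sets as a whole overlapped.

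Among the regulators, Insig1 differed by -0.88 ± 0.08 and Srebf2 by -0.36 ± 0.05, both called lower. Their 2 sets of 6 libraries did not overlap. Srebf1 (0.03 ± 0.05) and Scap (0.05 ± 0.05) were not called and their sets overlapped. Of the 9 fatty-acid genes, 7 were called lower, with a median of -0.22. Scd1 was at 25.4, 27.9, 12.2 and 13.4 CPM in miScramble, at 28.3, 33.1, 14.6 and 14.7 CPM in miRbmx, and at 28.4, 25.8, 13.1 and 16.2 CPM in miRbmxl1. The 2 sets of Scd1 did not overlap, and its difference was -1.0 ± 0.07.

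Smaller differences were found for Scd2 (-0.59 ± 0.06), Elovl6 (-0.31 ± 0.05), Fasn (-0.29 ± 0.07), Acss2 (-0.22 ± 0.05), Fads1 (-0.20 ± 0.04) and Fads2 (-0.16 ± 0.05). The Fads2 call was lost with no group term and held in 10 of 12 settings that left out a library. Acly (0.08 ± 0.06) and Acaca (-0.01 ± 0.05) were not called. In the transport group Stard4 was lower (-0.61 ± 0.06), and the LXR targets Abca1 (-0.15 ± 0.09) and Mylip (0.14 ± 0.11) were not called. Thus Abca1, lower in both knockdowns, was not called between replicate sets with the filter on low counts. With no filter it was called lower in replicates 3 and 4. Hmgcs1, Fdft1 and Scd1, the 3 genes lowest in replicates 3 and 4, were not called in a knockdown.

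**Figure D3:**
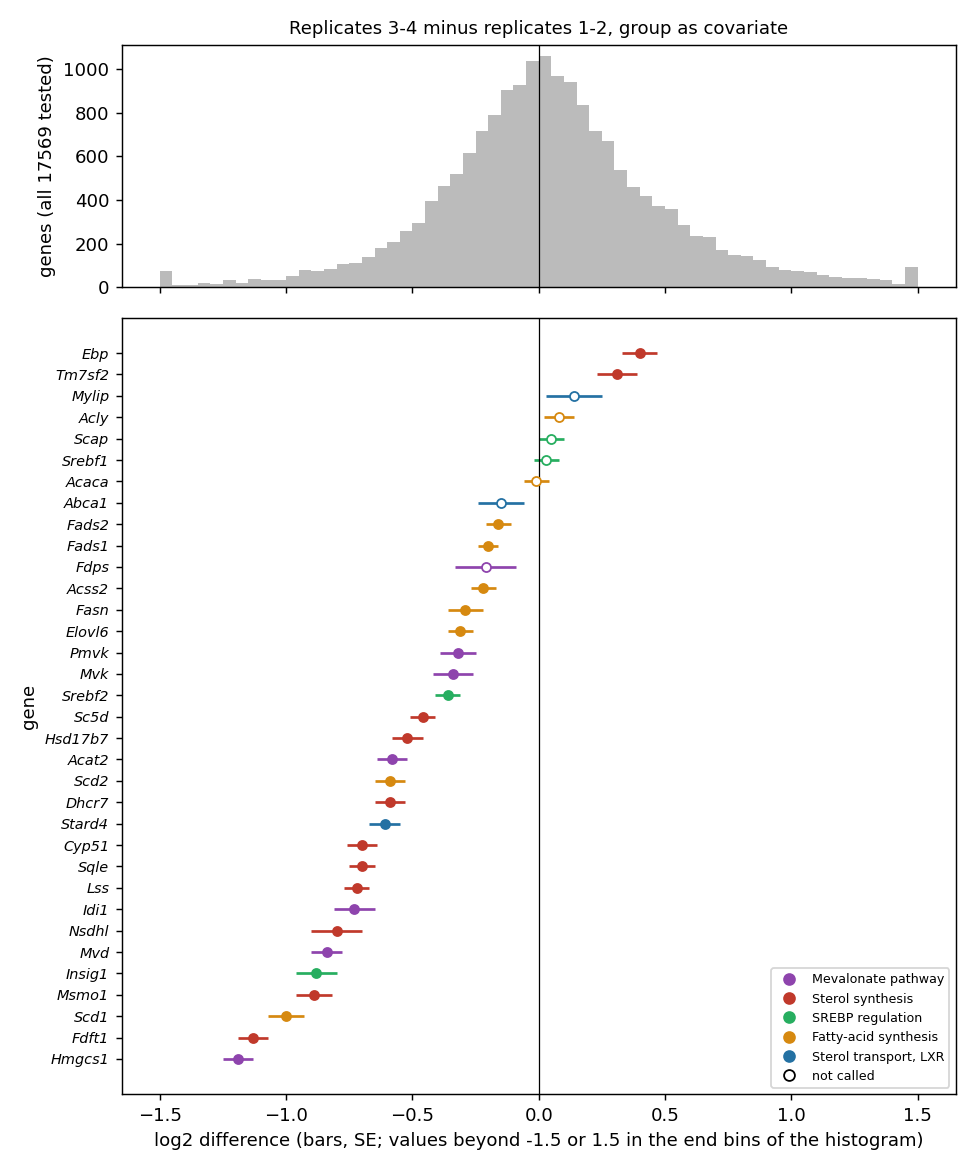
Log2 difference of replicates 3 and 4 minus replicates 1 and 2 for all 17569 genes tested (histogram, top) and for the 34 genes in order (points with SE, coloured by role, filled where called). Values run from -1.19 for Hmgcs1 to 0.40 for Ebp, and 25 filled points lie left of 0.

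**Figure D4:**
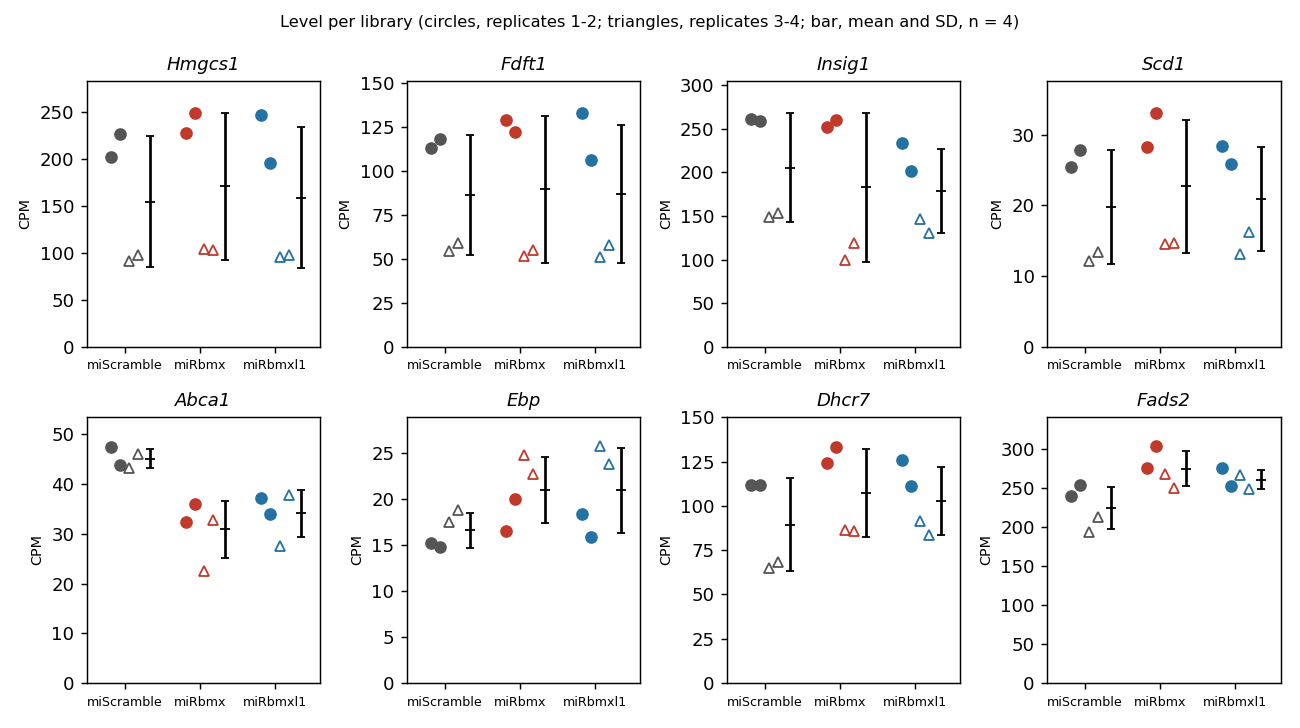
Level in CPM of 8 genes in each library, by group, with circles for replicates 1 and 2, triangles for replicates 3 and 4 and a bar for mean and SD (n = 4). In Hmgcs1, Fdft1, Insig1 and Scd1 circles and triangles separate inside every group, while all Abca1 libraries of either knockdown lie below the 4 scramble libraries.

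Of the 20 genes with CCAAT in the window, 16 were called lower in replicates 3 and 4, 2 higher and 2 not, with a median log2 difference of -0.49. Of the 7 genes with a window but no CCAAT, 3 were called lower and 4 not, with a median of -0.15. Over all genes tested that had a window, 26% were lower and 25.9% higher with CCAAT, and 27.5% and 24.3% without it. These counts describe the list, and the 8 genes without a window, Fdft1, Scd1 and Sqle among them, are in neither.

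Other measures moved with the replicate sets, and their part in these differences was not tested. The share of reads outside features was 26.3% to 29.2% in replicates 1 and 2 and 30.8% to 32.2% in replicates 3 and 4. The summed level of the 9 neuronal or neuroblastoma markers was 1505 to 1748 CPM and 1319 to 1472 CPM, a sum that the most abundant of them set. Among them, Stmn2 (-0.55 ± 0.05) and Tubb3 (-0.34 ± 0.07) were called lower in replicates 3 and 4, Th was called higher (0.23 ± 0.07), and Mycn (0.25 ± 0.11) and Dbh (0.29 ± 0.12) were not called. The 4 glial markers summed to 14.6 to 19.1 CPM and 10.6 to 15 CPM, with Mbp lower by a log2 difference of -0.43 ± 0.09 and Aqp4 at 0. The 2 endothelial markers summed to 5.86 to 7.82 CPM and 4.62 to 5.87 CPM, with Pecam1 at -0.44 ± 0.09. Lists at very low levels had higher medians in replicates 3 and 4. The 3 immune markers summed to 0.453 to 1.22 CPM and 0.727 to 1.48 CPM, with Cd68 called higher (0.80 ± 0.22). The 5 fibroblast markers summed to 0.0658 to 0.41 CPM and 0.26 to 0.438 CPM, and the 5 markers of lipid-rich cells to 0 to 0.0465 CPM and 0.0393 to 0.265 CPM.

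Whether a knockdown's change differed between the replicate sets was tested with an interaction term. It was called for no gene of the 34 and for no gene at all (0% of 17569, edgeR's quasi-likelihood test), and DESeq2 called none of the 34, with 56 and 42 genes in all (0.319% and 0.239%). At an unadjusted p under 0.05 there were 6 genes for miRbmx and 4 for miRbmxl1, where 11.1% and 8.36% of all genes were. For Insig1 the miRbmx change was lower in replicates 3 and 4 by a log2 difference of -0.44 ± 0.13 (unadjusted p = 0.00534, adjusted p = 0.304, edgeR), and the value for miRbmxl1 was 0.14 ± 0.13. With no filter on low counts, the miRbmx interaction was called for Insig1 (-0.47) and Fasn (-0.41), where 0.802% of all genes were. For Pmvk, the smallest p in both knockdowns, the interaction was 0.41 ± 0.11 in miRbmx (adjusted p = 0.299, edgeR) and 0.46 ± 0.11 in miRbmxl1 (adjusted p = 0.282, edgeR). The Abca1 interaction was -0.30 ± 0.15 for miRbmx, with a 95% interval of -0.63 to 0.02.

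A further 37 genes that supply, regulate or act beside these pathways were all tested. In miRbmx 4 were called higher and 1 lower, where 4.16% and 4.19% of all genes were, and in miRbmxl1 2 were higher and 1 lower, where 2.25% and 2.2% were. Acacb, the acetyl-CoA carboxylase of mitochondria, was at 12.9 to 16.2 CPM in miScramble, 17.7 to 19.3 CPM in miRbmx and 16.2 to 20.6 CPM in miRbmxl1. Its log2 changes were 0.34 ± 0.07 and 0.31 ± 0.07, with every miRbmx library above every scramble library. Nfya, a subunit of the CCAAT-binding factor NF-Y, was at 63.2 to 79.5 CPM in miScramble, 76.1 to 92.3 CPM in miRbmx and 82.3 to 88.1 CPM in miRbmxl1. Its changes were 0.29 ± 0.06 in both knockdowns, and the miRbmxl1 libraries did not overlap scramble. Me1, the cytosolic malic enzyme (0.32 ± 0.08), and the citrate carrier Slc25a1 (0.28 ± 0.06) were higher in miRbmx. Ggps1, the geranylgeranyl diphosphate synthase, was lower in both (-0.25 ± 0.06 and -0.24 ± 0.06).

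Between the replicate sets, 15 of the 37 further genes were lower and 6 higher in replicates 3 and 4, where 22.5% and 23.1% of all genes were, with a median log2 difference of -0.10. The lowest were the phosphatidate phosphatase Lpin1 (-0.88 ± 0.07) and the acetoacetyl-CoA synthetase Aacs (-0.82 ± 0.05). Insig2, the paralog of Insig1, differed by -0.39 ± 0.07. None of the 37 was called between the knockdowns (edgeR's quasi-likelihood test), and none had an unadjusted p under 0.05 there.

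Reads with several alignments (20.6% to 26.5% of each file) and ambiguous reads (1.2% to 1.45%) stand in rows of their own and enter no gene, so genes that share sequence or exons with another gene can be counted too low. Because the strand setting is not given in the sources used here, reads of a gene on the opposite strand cannot be told apart where exons overlap, as for Fdft1 (18.3% of its exon bases) and Hmgcs1 (12.1%). Of the 50-base words of the longest transcript, 52.6% for Acaca, 45.9% for Acat2, 30.7% for Fdft1, 30.5% for Idi1 and 13.6% for Hmgcs1 also occur in another gene, on either strand. For Fdft1 and Hmgcs1 the gene sharing most words, Ctsb and Gm48342, is the one that overlaps on the opposite strand. Their word shares thus partly repeat that overlap and are not all sequence from another place. Fdps shares 26.7% of its exon bases with a gene on its own strand and Tm7sf2 12.1%. The levels of these genes are therefore uncertain.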

How the data were processed

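The 12 libraries were grouped by the labels, with 4 libraries per group. The authors deposited raw counts per gene, 1 whole number per Ensembl gene in each library, without normalization. Per the labels' protocols, ribosomal RNA was depleted and stranded libraries were made. Per the submitters' processing notes, cutadapt, STAR 2.5.3a, HTSeq 0.6.1p1, R 3.3.2, DESeq2 1.16.1 and the build mm10 were named. Their roles, the strand setting and the annotation release are not given in the sources used here. The 5 rows that name no gene held 52.3% to 57.4% of each file and were left out.

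Symbols, positions and exon lengths came from GENCODE M21 (GRCm38), and promoters from RefSeq. The members, the gene lists and the split into replicate sets were chosen with earlier results of these data known. All 35 members are named. Values in every library are given for Srebf1, Srebf2, Insig1 and Scap, for up to 8 called members with the largest change in a knockdown, and for up to 8 with the largest difference between replicate sets. Acly, Tm7sf2, Lpin1, Aacs and Insig2 were given values after these were seen. The further list of 37 genes was treated by the same fits.

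Counts were filtered with filterByExpr (minimum count 10, minimum total 15), scaled by TMM and fitted with edgeR 4.0.16 (R 4.3.3) over all 12 libraries. The fits had group and replicate number as a block, group and replicate set, or the interaction of the set with the group. The Benjamini-Hochberg threshold for a call was 0.05, and SE was taken from the log2 change and its F statistic. The RPKM are CPM on TMM-scaled library sizes per kilobase of exon. The pairing of replicate numbers comes from the values: all 12 same-number pairs of different groups correlated above 0.1 (0.2 to 0.52, prior count 2), a range that overlaps that of other numbers in the same set (0.1 to 0.43). The common dispersion was 0.00929 with the block and 0.0362 without it. No library pair of a group agreed within sampling noise (lowest chi-square per degree of freedom 9.82). The p-values measure the spread between these samples.

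The fits were tested on simulated counts, with 200 genes changed and 3 runs. For miRbmx, 60% of genes changed 1.5-fold and 76.2% of those changed 2-fold were recovered. For the interaction with miRbmx the shares were 16.8% and 55.5%. False calls made up 3.7% to 12.3% of calls over the 6 contrasts, above the nominal 5% in most. The replicate-set contrast (6.9% at 1.5-fold and 3.7% at 2-fold) was simulated without effects shared by libraries of the same number, which the data have. Its shares therefore cannot be carried over to the calls between the real sets. Alternatives were no block or no group term, DESeq2 size factors, no filter, DESeq2 1.42.0, leaving out libraries or replicate numbers, and each replicate set alone. Those for the further list, the interaction without single libraries, and the libraries summed per replicate number were chosen after seeing the data.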

Additional observations from a re-analysis of the deposited data

Results flagged for a closer look

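In 4 of 105 groups of 4 libraries examined for the 35 genes, 1 library stood far from the other 3. Chance alone sets about 1 group in 20 apart this way where the 4 values are independent and normal. That does not hold for groups split by replicate set, so the rate is not a measure for these. Scap was at 223 CPM in miRbmxl1 replicate 2, where the other libraries of that group were at 254 to 259 CPM. Acaca was at 192 CPM in miRbmx replicate 2, with the others at 166 to 171 CPM. Abcg1 was at 0.0557 CPM in miScramble replicate 3 and at 0.0216 CPM in miRbmx replicate 2, while the other libraries of those groups were at 0. The Abcg1 values rest on at most 3 reads, and the rule always flags a group whose other libraries are all at 0.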

How the results depend on the processing

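Among the 34 tested genes, those called by edgeR over all libraries and with the filter on low counts kept their direction under every alternative run. Some genes called only within 1 replicate set had the opposite sign in the other set. These were Fasn (-0.23, called, against 0.16) and Msmo1 (-0.33, called, against 0.02) in miRbmx, and Pmvk (0.37, called, against -0.07) in miRbmxl1. The other calls of this kind kept their sign. Without the replicate block, the genes called over the whole table fell to 1 in miRbmx and 1 in miRbmxl1. None of the 34 genes and none of the further 37 was then called in either knockdown. The block changed no count by over 1.5 times between the knockdowns or for the interaction. Between replicate sets, the alternatives gave 6781 to 8189 genes in all and 26 to 28 of the 34; summing the libraries of each replicate number, chosen after seeing the data, gave 6781 and 27.

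With no filter, 7 members were called in miRbmx and 5 in miRbmxl1, 5 further genes were called in miRbmxl1, Insig1 and Fasn (2 members) passed for the miRbmx interaction, and over all genes 2085 were called in miRbmx, 1243 in miRbmxl1, 86 between the knockdowns and 255 (0.802%) for that interaction. DESeq2 called 1279 genes and 5 members in miRbmxl1, 6 members in miRbmx and 10 genes between the knockdowns. Within replicates 1 and 2 alone, 4 genes were called in miRbmx, 30 in miRbmxl1 and 4 between the knockdowns, with 0 members and 0 further genes against scramble. Within replicates 3 and 4 alone, 1818 genes and 10 members were called in miRbmx, 992 genes, 8 members and 6 further genes in miRbmxl1, and 18 genes between the knockdowns. The cause of these shifts was not tested.

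Leaving out 1 library or 1 replicate number gave 146 to 1904 genes and 1 to 7 members in miRbmx, 100 to 1032 genes and 0 to 7 members in miRbmxl1, and 2 to 7 genes and 0 members between the knockdowns. The further list gave 0 to 7 genes in miRbmx and 0 to 5 in miRbmxl1. In miRbmx, 1 member was left without miScramble replicate 3, miRbmx replicate 2 or 3, or replicate number 3 or 4, and 2 without miScramble replicate 4, while 7 were called without miRbmxl1 replicate 2. In miRbmxl1, no member was left without miScramble replicate 3, miRbmxl1 replicate 3, or replicate number 3 or 4, while 2 were called without miRbmx replicate 2, 6 without replicate number 2 and 7 without miRbmxl1 replicate 2. The interaction gave 0 to 1 members in either knockdown: Fasn in miRbmx without miRbmxl1 replicate 1 or 2 (-0.41), where 151 and 152 genes were called in all (0.842% and 0.85%), and Acly in miRbmxl1 without miRbmxl1 replicate 1 (0.48), where 56 were (0.312%).

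With 4 libraries per group the simulated interaction recovered few 1.5-fold changes, so differences of that size between replicate sets can be missed. The counts of Abcg1 are too low for any comparison.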
